A study of Mus musculus with 4 samples.

Results

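The genes described here mark the mesenchymal cells of the liver, the hepatic stellate cells and the portal fibroblasts, and were chosen by name: Lrat, Reln, Hgf, Ngfr, Pdgfra, Lhx2, Dcn, Lum and Vim. All 9 were found among the 18193 genes represented by a probe set with a single gene symbol, through 20 of 34945 such probe sets. Each gene is described by its brightest probe set by mean signal, and the other 11 probe sets serve as a check. All 9 brightest probe sets, and 3 of the other 11, were bright enough to be tested.

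RNA came from liver of C57BL/6 mouse fetuses on day 17 of gestation, sired by Sox17+/- males on that same background. One group was wildtype and the other Sox17+/-, heterozygous for the SOX-family transcription factor gene Sox17, with 2 biological replicates and so 2 Affymetrix arrays per genotype. The liver had been dissected free of the biliary system. The labels do not state how the Sox17 allele was made, the sex of the fetuses or how many fetuses went into a replicate. The comparison asks which liver transcripts differ between Sox17+/- and wildtype fetuses.

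Hepatic stellate cells lie between the sinusoidal endothelium and the hepatocytes, store vitamin A as retinyl esters and supply growth factors to the hepatocytes. Portal fibroblasts surround the bile ducts and vessels of the portal tract and lay down its matrix. In the fetus both belong to the mesenchyme of the liver, and both can become matrix-producing myofibroblasts after injury. Several of these genes are also used by other liver cells, Vim by endothelial and blood cells and Reln by some endothelial cells, so a signal from whole liver is not that of the mesenchyme alone. In such bulk RNA, fewer cells of a type and less RNA per cell cannot be told apart.

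Array signals had been scaled to the same trimmed mean of 500 on every array, and the median signal lay between 84.7 and 103. Sox17 itself gave 244 and 264 on the wildtype arrays against 139 and 124 on the Sox17+/- arrays on its brighter probe set, but the labels do not say if that probe set lies in the altered part of the gene. Wildtype array 1 had an Actb 3' to 5' signal ratio of 1.95, against 1.20 to 1.43 on the other 3 arrays. The Gapdh 3' to 5' ratio did not set it apart in this way, with 0.85 against 0.81 to 0.84. The summed signal of 9 hepatocyte genes was 316929 in wildtype and 315967 in Sox17+/- liver for array number 1, and 193292 and 183563 for number 2. Array 1 of one genotype shares a code in its name with array 1 of the other, and so do the arrays numbered 2, so values are given in the order of the numbers.

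Of the 9 genes, Ngfr stood out on its brightest probe set, with a signal about 2.16-fold higher in Sox17+/- liver. The other 8 differed by less than 2-fold. Without wildtype array 1, the Ngfr log2 difference was 0.74, which is below 2-fold. No gene passed the limma test after Benjamini-Hochberg adjustment over all probe sets (0 of 9 here, and 0 of 22519 probe sets, or 0%). At an unadjusted p under 0.05 there was 1 of 9, Ngfr, against 4.15% of the 11685 tested genes, and 923 of 22519 probe sets (4.1%). Both Sox17+/- arrays lay above both wildtype arrays for 2 of 9 genes, Ngfr and Lrat, against 14.5% of tested genes. They lay below both for 1 of 9, Lum, against 18.6%, and for the other 6 genes the groups overlapped. The median log2 difference was 0.05 over the 9 genes and -0.02 over all tested genes. The count of higher genes was 5 without Sox17+/- array 2 and 4 without Sox17+/- array 1, and that of lower genes was 4 and 3. Without wildtype array 2 it was 2 lower genes. With 1 array left in a group, groups fail to overlap more easily. The 14.5% and 18.6% are for 2 arrays against 2, so they are no measure for the counts with an array left out. With 2 arrays against 2 there are 6 ways to assign the arrays, so an exact permutation test can give no two-sided p below 2 in 6, and the p-values of limma measure the spread between these arrays only. The limma adjusted p was 0.9999 for each of the 9 genes.

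**Figure D1:**
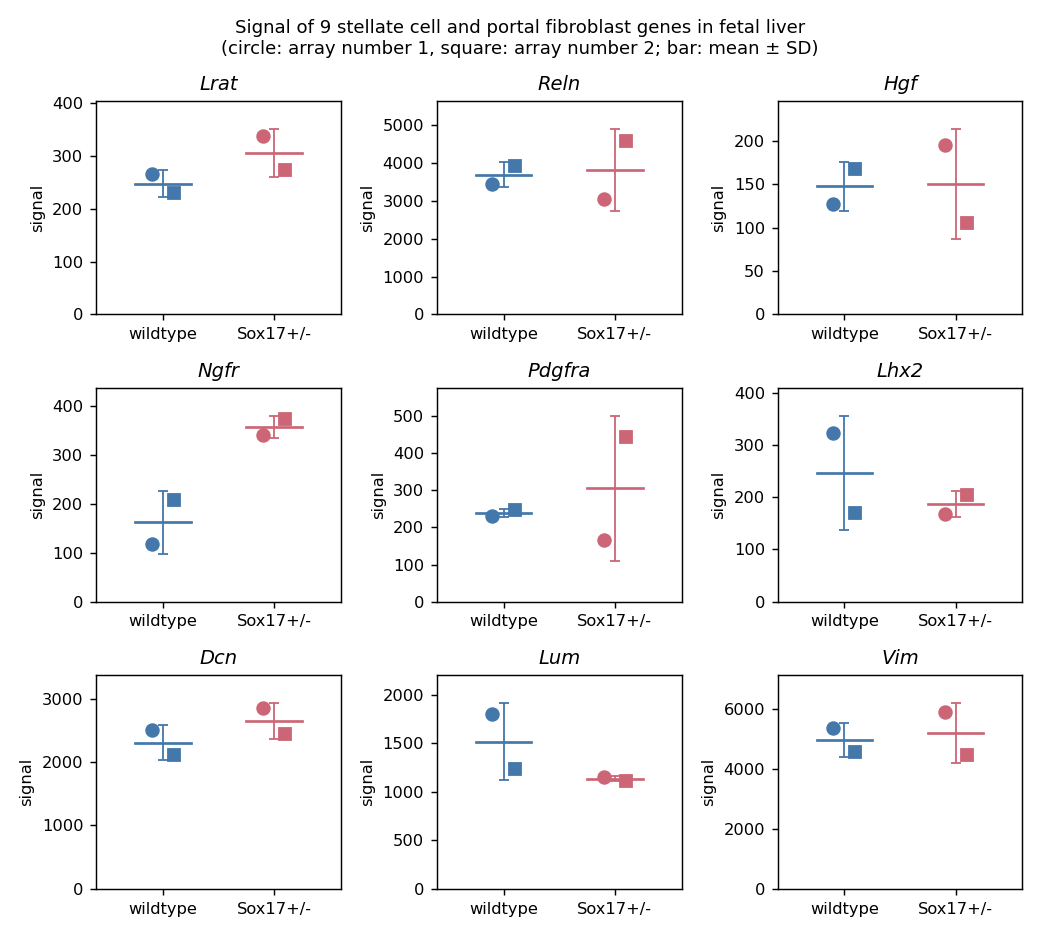
Signal of the brightest probe set of each gene (linear scale from 0) on the 2 wildtype arrays (blue) and the 2 Sox17+/- arrays (red); circles are arrays numbered 1, squares arrays numbered 2, and bars the mean ± SD. Ngfr sits at 341 and 373 in Sox17+/- liver, above 117 and 208 in wildtype, while the groups of Reln, Hgf, Pdgfra, Lhx2, Dcn and Vim overlap.

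The neurotrophin receptor gene Ngfr (probe set 1454903_at) encodes p75NTR, a receptor for nerve growth factor and its relatives that marks stellate cells and nerve-associated cells in the liver. Its signal was 117 and 208 on wildtype arrays 1 and 2, and 341 and 373 on Sox17+/- arrays 1 and 2. Both Sox17+/- arrays were high, the groups did not overlap, and the widest gap within a genotype was between the 2 wildtype arrays. The means were 162 ± 64 and 357 ± 22.9 (mean ± SD, n = 2 each), a log2 difference of 1.11 (SE 0.30, 95% interval 0.34 to 1.88), or 2.16-fold on the log2(signal + 16) scale. Within array number 1 the difference was 1.42 and within number 2 it was 0.80. In limma the unadjusted p was 0.0137 (adjusted p = 0.9999). Only 0.668% of tested genes had a higher log2 difference. Without wildtype array 2 the difference was 1.49, and without wildtype array 1 it was 0.74. The latter array has the Actb 3' to 5' ratio of 1.95, and the part of that in the Ngfr value was not tested. The unadjusted p was 0.0578 without Sox17+/- array 2.

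Of the other Ngfr probe sets, which were too dim to be tested, 1 went the same way and 1 did not. Probe set 1450177_at read 9.43 and 6.04 in wildtype against 16.2 and 61.9 in Sox17+/- liver, and 1421241_at read 13.0 and 20.2 against 13.7 and 17.7. Both lie in the dimmest 20% of probe sets, at the 18.2 and 11.9 percentiles of mean signal. The mean over the 3 Ngfr probe sets gave a log2 difference of 0.72 (limma adjusted p = 0.952).

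The stored form of vitamin A is made by lecithin retinol acyltransferase, the product of Lrat and a defining enzyme of stellate cells. Lrat signal (probe set 1444487_at) was 266 and 229 on the wildtype arrays and 338 and 274 on the Sox17+/- arrays. Both Sox17+/- arrays were above both wildtype arrays, although the lower Sox17+/- array exceeded the higher wildtype array by little. In the limma fit the log2 difference was 0.29 (SE 0.22, 95% interval -0.28 to 0.85), and the array numbered 2 was the lower one in both genotypes. The dimmer Lrat probe set (1421345_at) went the other way, with 72.0 and 111 in wildtype against 70.5 and 54.5 in Sox17+/- liver, and the mean of both probe sets gave -0.08. The 2 probe sets therefore do not give Lrat a common direction.

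By brightest probe set, Ngfr and Lrat were the genes whose Sox17+/- arrays both lay above the wildtype arrays, and their promoter windows are printed for that reason. The windows run from 250 bases before to 50 after the gene start on the gene's strand, from RefSeq (GRCm38.p6), and capitals mark the GC box GGGCGG or its reverse complement CCGCCC.
Ngfr, chr11:95587649-95587948, minus strand: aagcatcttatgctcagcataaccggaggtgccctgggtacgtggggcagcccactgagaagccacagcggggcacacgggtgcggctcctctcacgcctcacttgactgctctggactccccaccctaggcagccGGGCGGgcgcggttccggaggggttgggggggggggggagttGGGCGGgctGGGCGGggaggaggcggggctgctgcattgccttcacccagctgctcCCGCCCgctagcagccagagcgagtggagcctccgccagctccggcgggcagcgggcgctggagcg
Lrat, chr3:82903925-82904224, minus strand: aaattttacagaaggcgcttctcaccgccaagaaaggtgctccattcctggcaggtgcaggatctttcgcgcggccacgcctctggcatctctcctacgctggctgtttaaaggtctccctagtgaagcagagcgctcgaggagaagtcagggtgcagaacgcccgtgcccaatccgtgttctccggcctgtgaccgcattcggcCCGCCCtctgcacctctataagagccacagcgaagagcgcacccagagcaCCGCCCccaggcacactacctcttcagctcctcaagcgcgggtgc
The GC box letters occur at 4 places in the Ngfr window and at 2 in the Lrat window. They also occur at 6 places in the Reln window and at 4 in a Lhx2 window, so they are not particular to Ngfr and Lrat. On either strand the GC box letters are present in 4 of 9 windows of the genes described here, and in 35.66% of all 32851 RefSeq windows of 300 bases. The core letters of SOX-factor sites, ACAAT on either strand, occur in 31.02% of those windows and in 0 of the 9 windows of the 7 genes that matched (Lrat, Reln, Hgf, Ngfr, Pdgfra, Lhx2 and Vim). This says only that these letters are not in these windows.

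Of the secreted factors, Hgf encodes hepatocyte growth factor, which stellate cells supply to hepatocytes through the receptor MET. Hgf signal (probe set 1425379_at) was 128 and 167 in wildtype and 195 and 106 in Sox17+/- liver. The wildtype arrays lay between the 2 Sox17+/- arrays. The log2 difference was -0.02 (SE 0.33, 95% interval -0.86 to 0.82), with 0.56 within array number 1 and -0.59 within number 2. It was 0.38 without Sox17+/- array 2 and 0.16 without wildtype array 2, so its sign depends on the array. It was 0.03 with each array centred on its median and 0.05 after quantile normalization. The tested second probe set (1451866_a_at) read 109 and 113 against 59.6 and 99.2, a log2 difference of -0.45 (SE 0.27), and there both Sox17+/- arrays were lower. The remaining dim one (1442884_at) swung between 11.6 and 101 without regard to genotype.

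Reelin, a large secreted glycoprotein best known from neuronal migration, is made by stellate cells in the liver. Its brightest probe set (1449465_at) was at the 95.3 percentile of all probe sets. Reln signal was 3457 and 3929.8 in wildtype and 3050.1 and 4588 in Sox17+/- liver, and again the wildtype arrays lay between the Sox17+/- arrays. Between genotypes the log2 difference was 0.02 (SE 0.27, 95% interval -0.67 to 0.71). It was -0.07 without wildtype array 1 and -0.27 without Sox17+/- array 2. The other Reln probe set (1458020_at), at the 25.7 percentile and too dim to be tested, read 4.65 and 32.5 against 33.3 and 61.3. There both Sox17+/- arrays were higher, with a log2 difference of 0.96 (SE 0.52), and the mean of both probe sets gave 0.49.

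Pdgfra encodes the platelet-derived growth factor receptor alpha, found on stellate cells and portal fibroblasts alike. Its signal (1421917_at) was 232 and 247 in wildtype and 166 and 443 in Sox17+/- liver. The Sox17+/- arrays were the lowest and the highest of the 4, and the 2 wildtype arrays were close together. The log2 difference was 0.18 (SE 0.46, 95% interval -0.97 to 1.34), with -0.44 within array number 1 and 0.80 within number 2. Without Sox17+/- array 2 it was -0.48 and without Sox17+/- array 1 it was 0.85. A second Pdgfra probe set (1421916_at) read 65.4 and 86.8 against 80.0 and 88.9. The dimmest (1438946_at) went from 42.1 and 72.1 to 7.90 and 17.5, with a log2 difference of -1.34 (SE 0.35) in a fit over all probe sets. It lies at the 27.1 percentile, too dim to be tested, and the mean over the 3 probe sets was -0.34.

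The LIM-homeodomain factor Lhx2 is expressed in stellate cells, and mice without it have fibrotic fetal livers. Lhx2 signal (1418317_at) was 324 and 169 in wildtype and 169 and 205 in Sox17+/- liver. Wildtype array 1 was high and the other 3 arrays were close to each other. Sox17+/- minus wildtype, the log2 difference was -0.31 (SE 0.34, 95% interval -1.18 to 0.55). It became 0.12 without wildtype array 1 and -0.75 without wildtype array 2. Wildtype array 1 is the array with the Actb 3' to 5' ratio of 1.95, and the part of that in the Lhx2 value was not tested.

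The fibroblast matrix genes Dcn and Lum encode decorin and lumican, small leucine-rich proteoglycans that bind collagen fibrils. They are neighbours in the genome, in the order Dcn, Lum, Kera and Epyc in the RefSeq annotation (GRCm38.p6). Dcn signal (1449368_at) was 2504 and 2107 in wildtype and 2847 and 2450.1 in Sox17+/- liver. The groups overlapped, and in each genotype the array numbered 1 was higher. The log2 difference was 0.20 (SE 0.22, 95% interval -0.36 to 0.76), and it was 0.18 and 0.22 within the array numbers. It was 0.08 without wildtype array 2 and 0.09 without Sox17+/- array 1. The dim Dcn probe set (1441506_at) read 43.3 and 86.9 against 59.4 and 24.7, and the mean of both gave -0.15.

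Lum signal (1423607_at) was 1796 and 1236 in wildtype and 1154 and 1114 in Sox17+/- liver. Both Sox17+/- arrays were below both wildtype arrays, and wildtype array 1 was well above the other 3. In the limma fit the log2 difference was -0.39 (SE 0.26, 95% interval -1.04 to 0.26), with -0.63 within array number 1 and -0.15 within number 2. Without wildtype array 1 it was -0.12 and without wildtype array 2 it was -0.66. Wildtype array 1 is the array with the Actb 3' to 5' ratio of 1.95, and the part of that in the Lum value was not tested. Of tested genes, 10.2% had a lower log2 difference. The neighbours Kera and Epyc were dim, with signals of 3.86 to 8.01 and 5.07 to 52.4 over the 4 arrays. Decorin and lumican thus had differences of opposite sign, but each interval includes 0.

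Vim encodes vimentin, the intermediate filament of mesenchymal cells, and had 3 tested probe sets that gave close values. The brightest (1438118_x_at) read 5377 and 4589 in wildtype and 5916 and 4491 in Sox17+/- liver. The array numbered 1 was the higher one in both genotypes, and the groups overlapped. Its log2 difference was 0.05 (SE 0.24, 95% interval -0.56 to 0.66), and those of the other 2 probe sets were 0.10 and 0.05. The difference on the brightest was -0.14 without Sox17+/- array 1, -0.06 without wildtype array 2 and 0.25 without Sox17+/- array 2.

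**Figure D2:**
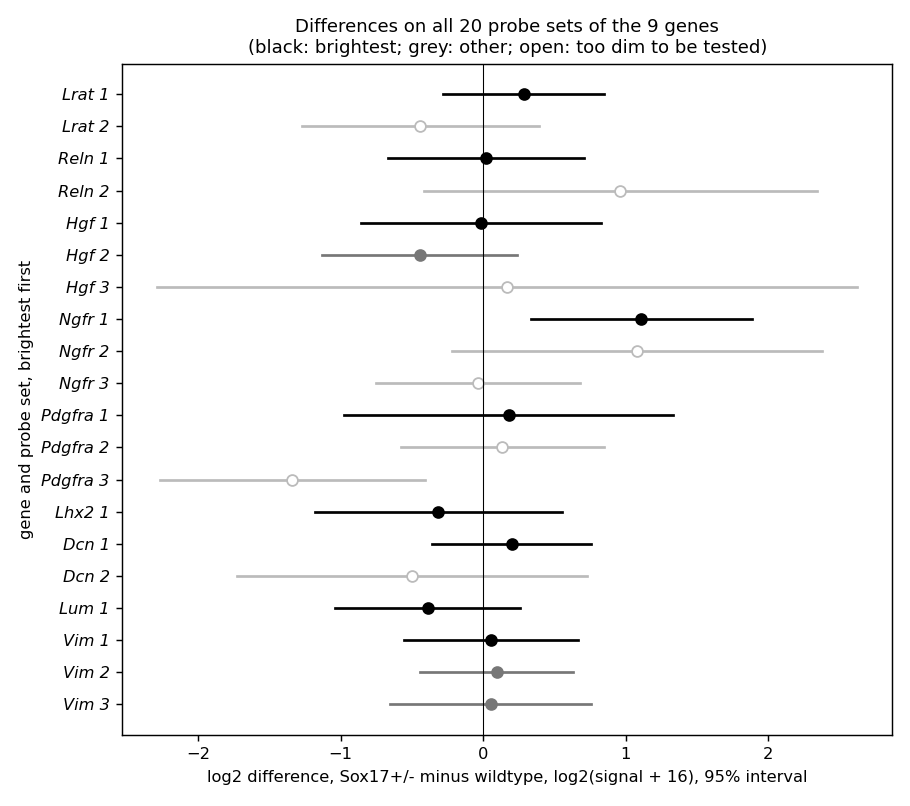
Log2 difference, Sox17+/- minus wildtype, with its 95% interval from the limma fit, for all 20 probe sets of the 9 genes (numbered from the brightest); black points are the brightest probe sets, grey the others, and open points those too dim to be tested. The brightest Ngfr probe set has an interval of 0.34 to 1.88, and the 3 Vim probe sets lie between 0.05 and 0.10.

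The width of these intervals sets what can be said of the other 8 genes. For 5 of the 9, Lrat, Reln, Hgf, Dcn and Vim, the 95% interval of the brightest probe set lay inside a 2-fold difference in either direction. For Pdgfra, Lhx2 and Lum it reached beyond 2-fold, so a 2-fold difference remained inside it. The other tested Hgf probe set had an interval of -1.13 to 0.24. Those of the dim Lrat, Reln and Dcn probe sets also reached beyond 2-fold, while those of the other Vim probe sets did not. The median absolute log2 difference between genotypes was 0.20 over the 9 genes and 0.17 over all tested genes. Between the 2 arrays of 1 genotype, the median absolute log2 difference of the 9 genes was 0.25 in wildtype and 0.29 in Sox17+/- liver, and for 8 of the 9 (all but Ngfr) the genotype difference was smaller than the wider of the gene's own within-genotype gaps.

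The 9 genes did not share a pattern over the 4 arrays. The centred log2 profiles of Lrat and Dcn were the closest pair, with a root mean square distance of 0.05, followed by Dcn and Vim at 0.10. All 3 were lower on the array numbered 2 in both genotypes, as was the summed hepatocyte signal, and the part of the array number in this was not tested. Among the 11684 other tested genes, the nearest to Lrat were Mkrn1, Pgm2 and Brms1, each at a distance of 0.01. The nearest to Dcn were Spint2, Catsperd and Fis1 at 0.01. With 4 arrays such closeness is common, since 428 genes lay within 0.1 of Lrat and 717 within 0.1 of Dcn. For Pdgfra the nearest were Tnrc6a, Cracd and Bcorl1 at 0.14 to 0.15, and 0 genes lay within 0.1.

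**Figure D3:**
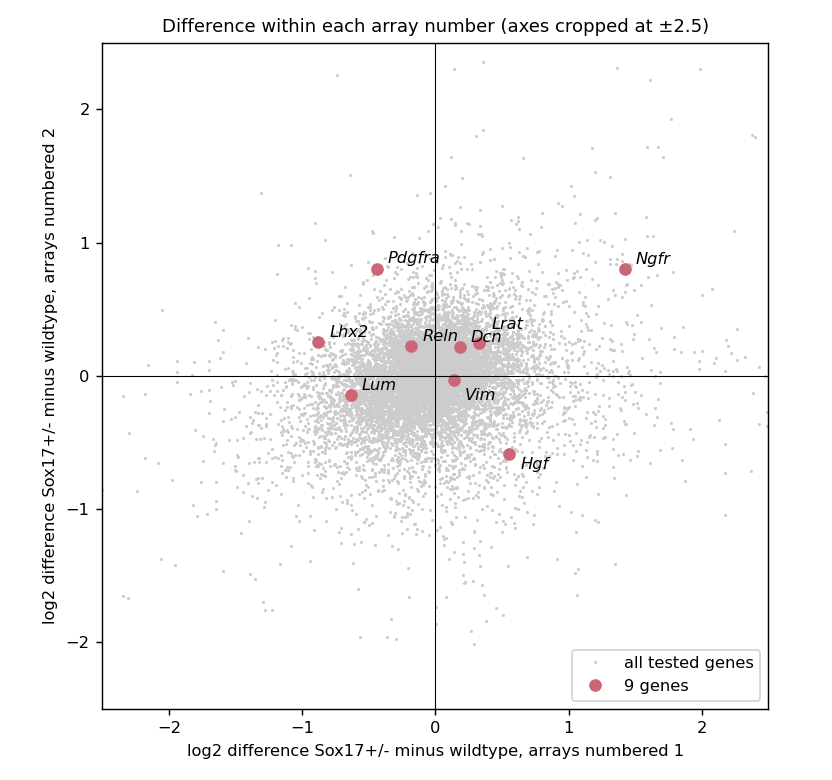
Log2 difference, Sox17+/- minus wildtype, within the arrays numbered 1 (horizontal) and within those numbered 2 (vertical); grey points are tested genes (39 lie outside the axes) and red points the 9 genes. Ngfr lies at 1.42 and 0.80, Dcn and Lrat are the other genes above 0 on both axes, and Pdgfra and Hgf lie in opposite quadrants.

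Other stellate cell genes had no common direction. Of 15 tested, 1 had both Sox17+/- arrays above both wildtype arrays and 3 had both below, counts near the 14.5% and 18.6% of all tested genes. The median log2 difference was -0.10, with 0 calls in limma in either direction. Des, which encodes the stellate and muscle intermediate filament desmin, read 125 and 69.7 in wildtype against 251 and 195 in Sox17+/- liver, a log2 difference of 1.11 (SE 0.31). Gata4, a factor that keeps stellate cells quiescent, read 212 and 225 against 141 and 149, a log2 difference of -0.55 (SE 0.20). Rspo3, a Wnt-enhancing ligand, had a log2 difference of -0.37. Among the 11 myofibroblast and matrix genes 2 were higher and 3 lower without overlap, with a median of 0.06. Ccn2, a matricellular protein gene, had 0.81, the smooth muscle gene Tagln -0.67 and Postn 0.39, none of them called, and Acta2, the usual mark of activated stellate cells, read 1397 and 1383 against 1323 and 1164.

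Of 7 tested portal fibroblast genes, 6 had a log2 difference below 0, as did 4 of 6 mesothelial genes, without a call in limma in either list. The share below 0 was 54.2% of all tested genes, and the mesothelial count is near it. Of the portal fibroblast genes, 0 were higher and 3 lower without overlap (14.5% and 18.6% of all tested genes), and the median log2 difference was -0.24. The elastic fibre gene Eln read 317 and 380 in wildtype against 244 and 267 in Sox17+/- liver, a log2 difference of -0.42 (SE 0.21). Fbln1 and Cd34 had -0.30 and -0.24. Thy1, the defining surface marker of portal fibroblasts, was too dim to be tested, with 112 and 91.0 against 26.8 and 22.4. Dpt and Slit2, also too dim to be tested, went the other way without overlap. Dpt read 11.9 and 13.8 against 75.2 and 26.2, and Slit2 17.8 and 50.8 against 92.5 and 68.3. The remaining untested genes of that list overlapped. Of 6 tested mesothelial genes 1 was higher and 2 were lower without overlap, with a median of -0.14, and Upk3b, Upk1b and Alcam had -0.57, -0.30 and 0.27. Msln and Lrrn4, too dim to be tested, were lower without overlap. Msln read 75.0 and 58.2 against 42.7 and 19.0, and Lrrn4 63.9 and 86.8 against 31.0 and 43.3. Wt1, also too dim to be tested, overlapped.

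The receptors and partners of the 9 genes gave 0 calls in limma in either direction on any list. Their counts without overlap are small and stand against 14.5% higher and 18.6% lower of all tested genes. Around Ngfr, 4 neurotrophin genes were tested and 1 was higher and 1 lower without overlap. Ntrk2, the receptor for brain-derived neurotrophic factor, read 189 and 157 in wildtype against 330.2 and 257 in Sox17+/- liver, a log2 difference of 0.71 (SE 0.23). Maged1, whose product binds p75NTR, had -0.44, and Bex3 had -0.06. Around Reln, 2 of 6 tested genes were higher and 1 lower without overlap, and the 2 were the reelin receptors themselves. Vldlr read 495 and 214 against 1547 and 1058, a log2 difference of 1.92 (SE 0.44). Lrp8 read 159 and 206 against 309 and 307, a log2 difference of 0.72 (SE 0.22). The adaptor gene Dab1 had 0.35. Reln itself differed by 0.02 on its brightest probe set and by 0.49 as the mean of its 2 probe sets.

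For PDGF signalling, 1 of 4 tested genes was higher without overlap and 0 lower. Pdgfa, which encodes the main ligand of the receptor alpha, read 192 and 99.1 in wildtype against 346 and 253 in Sox17+/- liver, a log2 difference of 1.01 (SE 0.35). Pdgfc had -0.26, and Pdgfrb, the receptor of stellate cells and pericytes, had 0.13. Around Hgf, 0 of 7 tested genes were higher and 1 lower without overlap. That was the receptor gene Met, with 1225 and 1098 against 796 and 837, a log2 difference of -0.50 (SE 0.20). Hpn, which encodes a protease that activates the growth factor, had -0.45, and the protease inhibitor gene Spint2 had 0.22.

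Around Lrat, 14 genes of retinoid storage and signalling were tested. Of these 0 were higher and 1 lower without overlap, 7 had a log2 difference below 0, and the median was -0.03. The retinoic acid receptor gene Rarb, itself a target of retinoic acid, read 167 and 185 in wildtype against 123 and 154 in Sox17+/- liver, a log2 difference of -0.32 (SE 0.22). Aldh1a1, for a retinaldehyde dehydrogenase, had -0.60 (95% interval -1.78 to 0.58), and Pnpla3, for a retinyl ester lipase, had -0.33.

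Among small leucine-rich proteoglycans other than Dcn and Lum, 2 of 5 tested were higher and 1 lower without overlap. Fmod, which encodes fibromodulin, read 102 and 150.5 in wildtype against 315 and 185 in Sox17+/- liver, a log2 difference of 0.88 (SE 0.33). Podn had 0.79 and Prelp -0.49. Of 9 tested intermediate filament genes 2 were higher and 1 lower without overlap, Des being the one with the highest difference, and Prph and Gfap had -0.25 and -0.37. Nes, for the stellate cell filament nestin, was too dim to be tested, with 30.8 and 43.8 against 238 and 82.3. Of 7 tested partners of LIM-homeodomain factors 2 were higher and 0 lower without overlap, with a median of 0.26, and Ssbp2, Lmo4 and Ldb2 had 0.41, 0.39 and 0.41.

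**Figure D4:**
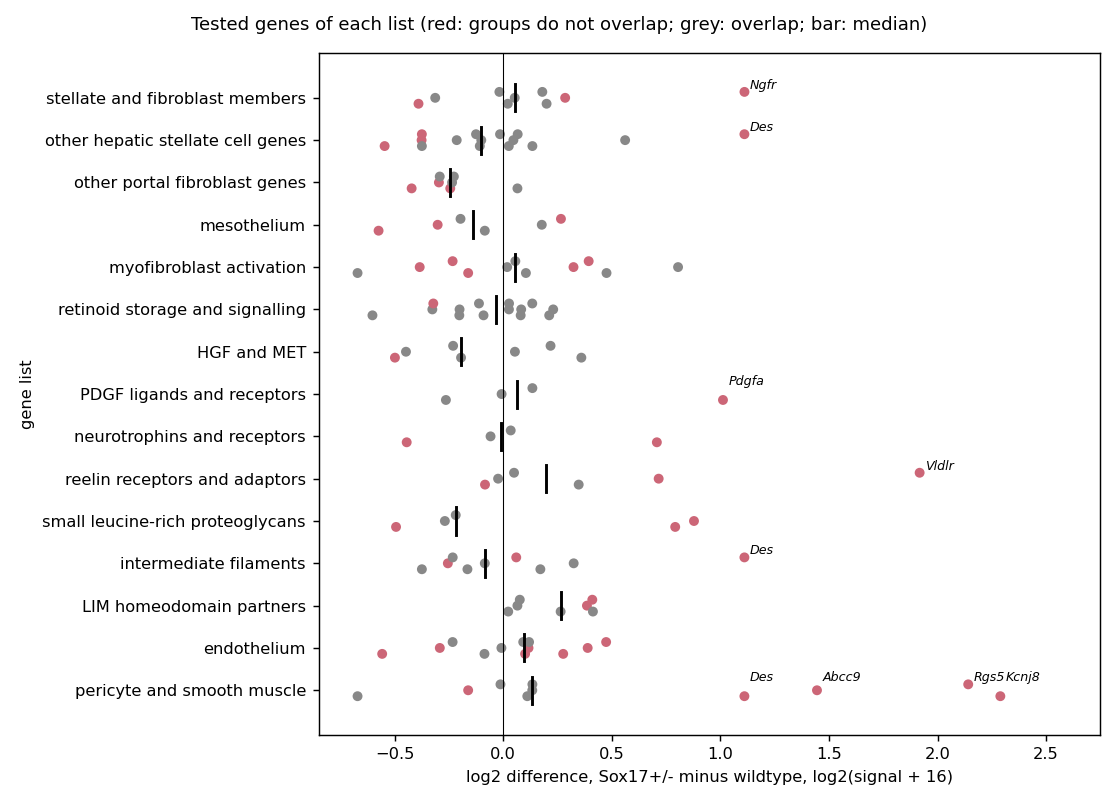
Log2 difference, Sox17+/- minus wildtype, of every tested gene of 15 lists; red points are genes whose 2 Sox17+/- arrays both lie above or both below the 2 wildtype arrays, grey points overlap, and the bar is the list's median. The medians lie between -0.24 and 0.26, and the genes beyond 0.95 are labelled.

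Genes of neighbouring cell types are given beside the Ngfr value. Of 10 tested pericyte and smooth muscle genes, 4 were higher and 1 lower without overlap (14.5% and 18.6% of all tested genes), and the 4 were Abcc9, Rgs5, Kcnj8 and Des. Abcc9, a potassium channel subunit gene of pericytes, read 631 and 467 in wildtype against 1450 and 1565 in Sox17+/- liver, a log2 difference of 1.44 (SE 0.24). Rgs5 read 77.7 and 33.7 against 354 and 228, and Kcnj8 read 144 and 34.5 against 602 and 296. The summed signal of 12 pericyte and smooth muscle genes was 3026 to 3643 in wildtype and 4505 to 5093 in Sox17+/- liver. Abcc9, Rgs5 and Kcnj8 are part of that sum, and its higher value in Sox17+/- liver comes from them. The sum is therefore no measure of the other genes of the list, and not all of the list was higher. The median log2 difference of the list was 0.13, and 3 of the 10 tested genes were below 0, among them Acta2 (-0.16) and Tagln (-0.67). The summed signal of the 9 genes described here was 12883 to 14201 in wildtype and 14044 to 14177 in Sox17+/- liver, with overlapping groups. Vim, Reln, Dcn and Lum weigh most in it, with 5377, 3457, 2504 and 1796 of 14201 on wildtype array 1. It therefore says little of Ngfr, Lrat, Pdgfra, Hgf and Lhx2. Among 12 endothelial genes 5 were higher and 2 lower without overlap, with a median of 0.10 and a summed signal of 8634 to 11023 against 10503 to 10561, and Tek, Pecam1 and Flt4 had -0.56, 0.47 and 0.39. The part of pericytes, smooth muscle and endothelium in the Ngfr value was not tested.

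The counts of the remaining cell types stand against the same 14.5% higher and 18.6% lower. The 9 tested macrophage genes had 1 higher and 4 lower without overlap (median -0.15), and 5 tested bile duct genes had 1 higher and 0 lower (median 0.06). For 6 megakaryocyte and platelet genes these counts were 0 and 5 (median -0.25), and for 6 erythroid genes 0 and 1 (median -0.05). They were 0 and 0 for 9 hepatocyte genes (median -0.04) and for 8 neutrophil genes (median 0.04).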

How the data were processed

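Biotinylated cRNA from 4 fetal liver RNA samples was hybridised to 4 Affymetrix arrays of 1 colour each. The authors deposited intensity values of probe sets (signals, linear scale) from MAS5, as given by the submitters' processing notes, and each array's mean after trimming 2% at each end was 500. Of 45101 probe sets, 64 controls were left out, and 34945 of the other 45037 had 1 symbol in the platform annotation. The MAS5 version is not given in the sources used here.

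Signals were taken as log2(signal + 16), on which differences at low signal are understated. Tested were the 22519 probe sets in the upper 50% by mean log2 value, in R 4.3.3 with limma 3.58.1 (lmFit, eBayes, genotype as the only term, two-sided), with Benjamini-Hochberg adjustment (threshold 0.05). There were 2 residual degrees of freedom, and the prior contributed 3.24. Values for untested probe sets come from a fit without the filter. The code was tested on simulated data.

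The 9 genes, the lists and the tests were chosen with earlier results of these data known. Genes named besides the 9 were the 3 with the smallest p of each pathway, mesenchymal, endothelial and pericyte list, the nearest patterns of Lrat, Pdgfra and Dcn, and Sox17. Acta2, Thy1, Dpt, Slit2, Msln, Lrrn4, Wt1, Nes, Kera and Epyc were added after their values were seen. Deviations from the genotype mean correlated between arrays of the same number (r = 0.383 over 22519 probe sets, which are not independent), but 2 pairs do not settle whether the number pairs the samples. The number of arrays limits the precision.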

Additional observations from a re-analysis of the deposited data

How the results depend on the processing

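The number of probe sets past the adjusted threshold was 0 in 10 of 12 alternatives, 5 with each array centred on its median and 3 with a trended and robust prior (limma). None was one of the 9 genes, of which 0 were called in 112 values over all alternatives. With the array number as a replicate block in the limma fit, 0 probe sets passed, 1693 had an unadjusted p under 0.05, the median of the 9 genes was 0.05 and Ngfr had 1.11 (unadjusted p = 0.00641, adjusted p = 0.625). Of the 112 values, 31 equal the reported difference by construction (the block, the trended prior, no filter and the brighter 25%), and so does the median under the block. Of the other 81, 68 kept the sign and 13, of 7 genes, turned it. Ngfr and Lum kept theirs, over 0.72 to 1.49 and -0.66 to -0.12.

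When each gene was averaged over its probe sets, the median of the 9 was -0.10, 1 gene was higher without overlap, and Lrat (-0.077), Pdgfra (-0.34) and Dcn (-0.15) turned. Hgf turned with median centring (0.029) and quantile normalization (0.046). The count of higher genes was 0 among the brighter 25% of probe sets, where 4 genes could be tested, and 1 after quantile normalization, and that of lower genes was 0 with median centring. Leaving out 1 array gave a median of 0.092 to 0.25, 2 to 5 higher and 1 to 4 lower genes, 0 probe sets called, and differences of 0.08 to 0.32 for Dcn, -0.42 to 0.38 for Hgf, -0.75 to 0.12 for Lhx2, 0.14 to 0.43 for Lrat, -0.48 to 0.85 for Pdgfra, -0.27 to 0.31 for Reln and -0.14 to 0.25 for Vim. The higher and lower counts with an array left out have no share of all tested genes beside them. The causes were not tested.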
